A study of Mus musculus with 4 samples.

Results

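Integrins are adhesion receptors that reach the cell surface only as a heterodimer of an alpha and a beta chain, so the RNA of both chains bears on which receptors a T cell can build. In T cells αLβ2 binds ICAM proteins on other cells, α4β1 and α4β7 bind VCAM-1 and the gut addressin MAdCAM-1, αEβ7 binds E-cadherin on epithelium, and αV pairs with several beta chains to bind matrix proteins or latent TGF-beta. PSGL-1, the product of Selplg, is the main protein that carries the sugars recognised by P-selectin on vessel walls. The genes described here are 10, picked by symbol from the 25509 genes of the deposited table: the alpha chains Itgae, Itga4, Itgal and Itgav, the beta chains Itgb7, Itgb1, Itgb2, Itgb3 and Itgb8, and Selplg. The rule uses symbols and no measured values, although the genes were proposed with earlier results of these data known, and all 10 were found in the table.

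The libraries came from mouse spleen CD4+ T cells sorted as naive (by surface markers that include CD25- and CD44 low) and given TCR and costimulatory antibodies (anti-CD3, anti-CD28) for 72 h, together with TGF-beta, IL-4 and TL1A, a TNF-family cytokine. These are conditions for TH9 cells, which secrete interleukin 9, and both genotypes received the same mixture. There were 2 WT and 2 Batf3-/- libraries. BATF3 is a leucine zipper protein of the AP-1 superfamily and binds DNA in dimers with JUN proteins. The labels give no strain, age or sex of the mice, do not say which exons the Batf3 allele lacks, and do not say that replicates came from separate animals or cultures, and every p-value therefore reflects spread among these 4 libraries alone.

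Library totals ran from 15624874 to 31098059 estimated counts. Batf3 had 1439 and 1661 counts in WT replicates 1 and 2 and 17 and 8 in Batf3-/- replicates 1 and 2. Xist, the RNA of the inactive X chromosome, was at 0.214 and 0.0944 CPM (counts scaled to library size by TMM normalization) in replicate 1 of WT and Batf3-/- and at 166 and 144 CPM in replicate 2, so the 2 libraries of a genotype were not repeats of 1 RNA sample. Ratios within a replicate number are printed where a result turns on them. WT replicate 1 correlated with the other libraries at 0.972 to 0.976 over the log2 CPM of tested genes, against 0.982 to 0.983 among the other 3. All 8 CD4 T cell markers examined were expressed in every library, with summed levels of 2361 to 2546 CPM in WT and 2431 in each Batf3-/- library. Ms4a1 of B cells, Lyz2 of myeloid cells, Ncr1 of NK cells and Clec9a of cross-presenting dendritic cells were at 0 in all libraries. Other markers on those lists were detected in every library, with Cd79b of B cells at 9.62 to 13.1 CPM, Zbtb46 of dendritic cells at 4.91 to 7.24 and Cd68 of macrophages at 2.97 to 4.33. Pecam1, on the stromal or epithelial list, was at 21.9 to 24.9 CPM.

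Setting the genotypes side by side asks whether the integrin chains and the selectin ligand depend on BATF3 in these cultures. None of the 9 members with enough counts passed edgeR's quasi-likelihood test at an adjusted p of 0.05, against 0.132% of all 12135 tested genes (0.0824% higher and 0.0494% lower in Batf3-/-). DESeq2 and limma-voom also called 0, and 1 member, Itgae, had an unadjusted p under 0.05 in edgeR, which held for 4.8% of tested genes. Of the 9, 7 had an absolute log2 fold change below 0.2. Itgae and Selplg stood further up, at 0.74 and 0.42, and were the 2 members of 9 in which both Batf3-/- libraries lay above both WT libraries (18.2% of tested genes). In bulk RNA, a larger share of expressing cells and more RNA per cell cannot be told apart. In 0 of 9 did both lie below (15.6% of tested genes). The median log2 fold change of the 9 was 0.07, against -0.01 over all tested genes.

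**Figure D1:**
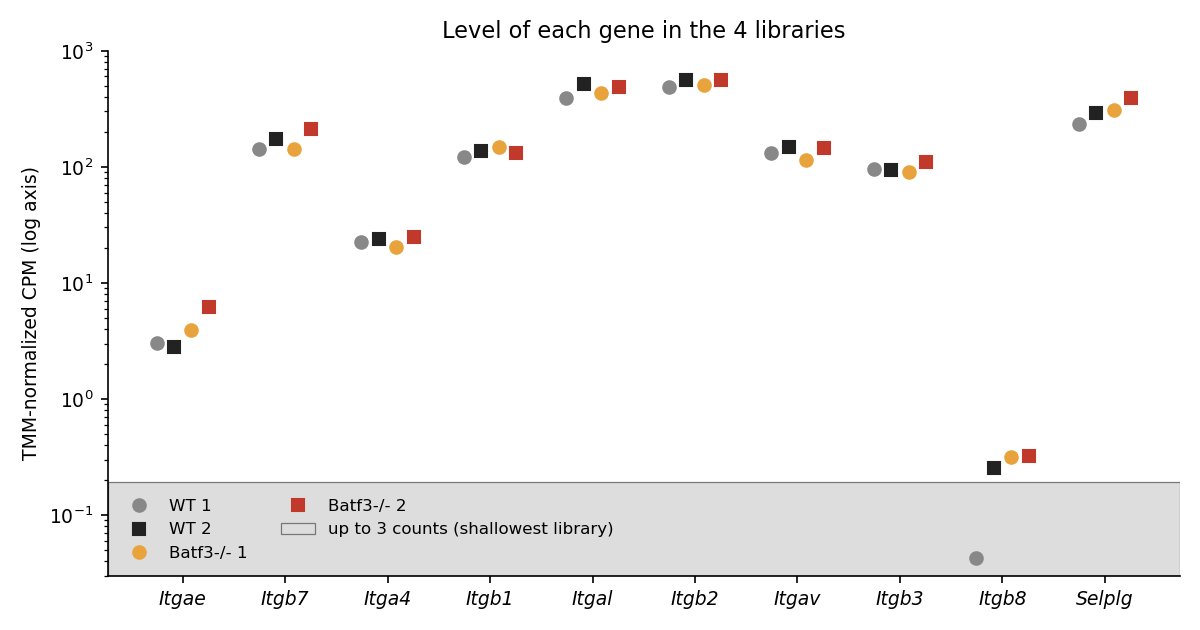
TMM-normalized CPM (log axis) of the 10 genes in each library, with circles for replicate 1 and squares for replicate 2, and grey shading for levels that correspond to 3 counts or fewer in the shallowest library. Itgb2, Itgal and Selplg are the highest genes, from 236 to 565 CPM, Itgae lies between 2.81 and 6.14 CPM and Itgb8 has 1 to 10 counts.

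To set the chains against each other, levels were divided by exonic length. Itgb2, the common beta chain of the leukocyte integrins, was highest, at 159 and 184 CPM per kb of exon in WT and 165 and 185 in Batf3-/- replicates 1 and 2. Selplg (mean 72.1 CPM per kb over the 4 libraries), Itgal (69.6) and Itgb7 (60.4) followed, with ranges that overlapped between neighbours. Next came Itgb1 at 29.6 to 36 CPM per kb, Itgb3 at 15.2 to 18.7 and Itgav at 10.6 to 13.7, which did not overlap. Itga4 stood at 1.46 to 1.76, Itgae at 0.613 to 1.34 and Itgb8 at 0.00388 to 0.0292 CPM per kb, so the 2 alpha chains that pair with β7 were the lowest of the 4 alpha chains described. With the length of the longest transcript in place of the union of exons, Itgav (19.1) stood above Itgb3 (16.9), and the means of Selplg and Itgal were 133 and 87.6 CPM per kb. Every other place in the order of the 10 was the same with either length.

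**Figure D2:**
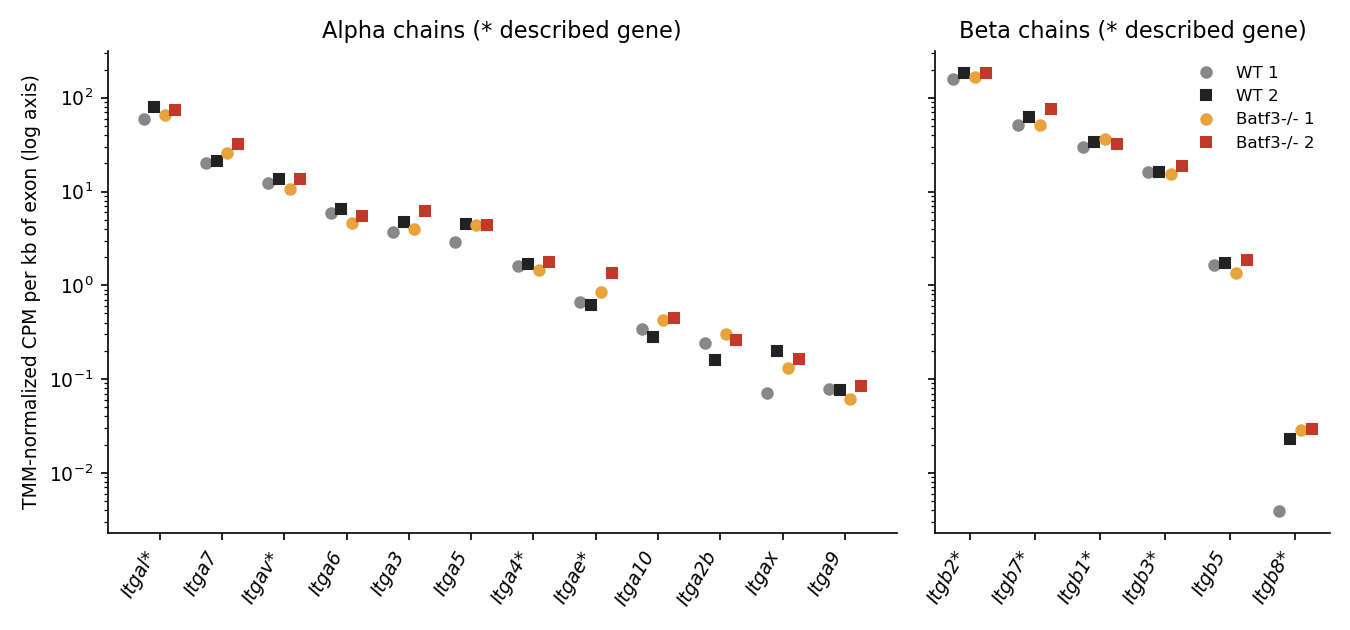
TMM-normalized CPM per kb of exon (log axis) in each library for the 18 integrin chains that were tested or belong to the genes described (asterisks), alpha chains on the left and beta chains on the right. Itgal leads the alpha chains at 59.3 to 79.2 and Itgb2 the beta chains at 159 to 185, while Itga4 and Itgae lie below 2.

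The RNA of αLβ2 (LFA-1), the integrin that holds T cells to antigen-presenting cells and endothelium, was the most abundant of the pairs per kb, and the genotypes overlapped for both chains. Itgal (ENSMUSG00000030830.18, GRCm38 chromosome 7, 127296260 to 127335138, protein coding), the αL chain, was at 389 and 520 CPM in WT and 431 and 489 CPM in the 2 Batf3-/- libraries, which lay between the WT values. Its log2 fold change was 0.02 with a 95% interval of -0.41 to 0.44. Itgb2 (ENSMUSG00000000290.13, chromosome 10, 77530252 to 77565708) was at 485 and 563 CPM in WT and 503 and 565 CPM in Batf3-/-, with a log2 fold change of 0.03 (interval -0.38 to 0.43). Per kb of exon, Itgal stood at 0.373 to 0.429 of Itgb2 in the 4 libraries. Of the alpha chains that pair with β2 (Itgal, Itgam, Itgax and Itgad), Itgal made up 99.7% to 99.9% of the summed level per kb. Itgam and Itgax, the alpha chains of myeloid cells, had 1 to 4 and 8 to 26 counts, and Itgad had 0, which allows up to 0.0944 to 0.194 CPM (3 counts).

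The β7 chain was abundant while its alpha partners were scarce. Itgb7 (ENSMUSG00000001281.9, chromosome 15, 102215995 to 102231944, protein coding), shared by the gut-homing integrin α4β7 and by αEβ7, was at 143 and 173 CPM in WT and 141 and 212 CPM in Batf3-/- replicates 1 and 2. Replicate 2 was higher than replicate 1 in both genotypes and the groups overlapped (log2 fold change 0.16, interval -0.28 to 0.60). Itga4 (ENSMUSG00000027009.18, chromosome 2, 79255426 to 79333123, protein coding), the α4 chain, was at 22.3 and 23.7 CPM in WT and 20.4 and 24.6 CPM in Batf3-/-, so that the Batf3-/- libraries lay on either side of WT (log2 fold change -0.04, interval -0.48 to 0.41). Per kb of exon Itgb7 exceeded Itga4 by 32.3-fold to 43.6-fold and Itgae by 57.1-fold to 102-fold in the 4 libraries. Together Itga4 and Itgae came to 0.0369 to 0.0453 of the Itgb7 level per kb. Itga4 also serves β1, and its log2 ratio to Itgb1 was -4.21 and -4.32 in WT and -4.63 and -4.20 in Batf3-/- replicates 1 and 2.

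In every library except Batf3-/- replicate 2 the Itga4 count was fractional, so part of it was set by how reads were divided. Cerkl, a ceramide kinase-like gene, lies on the opposite strand and overlaps the end of Itga4. The fractional counts of the 2 genes summed to 534.00 and 661.00 in the WT libraries. In Batf3-/- replicate 1 they summed to 666.05, which is not whole, so Cerkl alone does not account for the fraction there. In Batf3-/- replicate 2 both counts were whole, and no division of reads shows. Cerkl held 1.04% to 2.87% of the sum. The number of reads open to both genes was not counted, so this share does not bound the uncertainty of the Itga4 level.

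To let the α4β7 pair be seen at the sequence level, the 250 bases before the start of each of its genes are shown, from RefSeq on GRCm38.p6, 5′ to 3′ on the gene's strand. The RefSeq table matched 5 of the 10 genes (Itga4, Itgav, Itgb1, Itgb7 and Itgb8). Capitals mark matches on either strand to CAGAC (reverse complement GTCTG), the core letters bound by SMAD proteins downstream of TGF-beta, and to TGTGGT (reverse complement ACCACA), a RUNX core; TGANTCA, the AP-1 heptamer read by BATF-JUN dimers, was searched on both strands as well. No match overlaps another.
Itga4, chr2:79255176-79255425, plus strand: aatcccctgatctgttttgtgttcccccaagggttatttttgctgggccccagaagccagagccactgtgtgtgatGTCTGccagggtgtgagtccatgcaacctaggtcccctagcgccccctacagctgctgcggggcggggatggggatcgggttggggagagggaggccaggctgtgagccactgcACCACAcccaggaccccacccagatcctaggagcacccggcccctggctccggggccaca
Itgb7, chr15:102231936-102232185, minus strand: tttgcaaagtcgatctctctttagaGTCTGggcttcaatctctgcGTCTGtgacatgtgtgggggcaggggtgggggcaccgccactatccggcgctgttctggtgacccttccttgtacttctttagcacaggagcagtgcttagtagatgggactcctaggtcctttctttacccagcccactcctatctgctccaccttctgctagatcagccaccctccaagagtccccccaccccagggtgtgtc
The Itga4 window held 1 SMAD and 1 RUNX match, and the Itgb7 window held 2 SMAD matches and 0 RUNX matches. TGANTCA occurred in 0 of the 5 windows, and it occurs in 6.75% of the 32851 windows of this length in the table. The SMAD letters are in 42.2% of those windows and the RUNX letters in 14%. These matches describe letters only and say nothing about binding in these cells.

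Itgae (ENSMUSG00000005947.11, chromosome 11, 73090583 to 73147446, protein coding) encodes αE or CD103, the chain that retains T cells in epithelium and that TGF-beta is known to induce. It had 71 and 77 counts in WT replicates 1 and 2 and 124 and 95 in Batf3-/- replicates 1 and 2. These are 3.04 and 2.81 CPM in WT and 3.9 and 6.14 CPM in Batf3-/-, or 2.93 ± 0.168 against 5.02 ± 1.58 CPM (mean ± SD, n = 2 each). Both Batf3-/- libraries were higher than both WT libraries, and replicate 2 was the highest. The log2 fold change was 0.74 (SE 0.33, interval 0.05 to 1.43, edgeR unadjusted p = 0.0372 and adjusted p = 0.958), which did not pass. Replicate 1 alone gave a log2 ratio of 0.35 and replicate 2 gave 1.13. Leaving out Batf3-/- replicate 2 brought the fold change to 0.42 on the log2 scale and leaving out Batf3-/- replicate 1 to 1.07, each with 1 Batf3-/- library left.

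Foxp3, the regulator of regulatory T cells, which often carry CD103, was at 9.81 and 17.7 CPM in WT and 29.2 and 21 CPM in Batf3-/- replicates 1 and 2. For Foxp3, as for Itgae, both Batf3-/- libraries lay above both WT libraries. The log2 fold change of Foxp3 was 0.87 (interval 0.30 to 1.44, unadjusted p = 0.00493, adjusted p = 0.593, edgeR), which did not pass. Foxp3 was highest in Batf3-/- replicate 1 and Itgae in Batf3-/- replicate 2. Of the 2 CD8 T cell markers, another source of CD103, Cd8a was at 0.0647 to 0.182 CPM and Cd8b1 at 7.24 to 8.92 CPM, and their summed level was 8.49 to 9.09 CPM in WT and 7.31 to 7.43 CPM in Batf3-/-. The 7 dendritic cell markers summed to 8.16 to 9.82 CPM in WT and 7.5 to 7.81 CPM in Batf3-/-, most of it from Zbtb46 (4.91 to 7.24 CPM) and Flt3 (0.905 to 1.84 CPM), with Clec9a at 0 and Xcr1 at 0 to 0.0729 CPM. The part of Foxp3-expressing cells, CD8 T cells or dendritic cells in the Itgae values was not tested. The kinase gene Gsg2, now named Haspin, lies within Itgae on the opposite strand and stood at 16.1 and 18 CPM in WT and 16.2 and 14.9 CPM in Batf3-/-. Both genes had whole counts in every library, and whether Gsg2 reads entered the Itgae count was not tested.

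Over the 4 libraries, the genes whose centred log2 CPM lay closest to that of Itgae among 9466 genes searched were Prmt1, Cnbd2 and Ppm1j, at Euclidean distances of 0.138, 0.18 and 0.212. Prmt1, an arginine methyltransferase gene with fractional counts, was at 7.85 and 6.88 CPM in the WT libraries and, like Itgae, was highest in Batf3-/- replicate 2, at 14.8 CPM against 8.78 CPM in replicate 1. Itgae and Itgb8 were the only members whose log2 CPM spanned 1 or more over the libraries, and for Itgb8, with its few counts, the closest were Lrfn4, Psd and Ccl22, at 0.728 to 0.828.

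**Figure D3:**
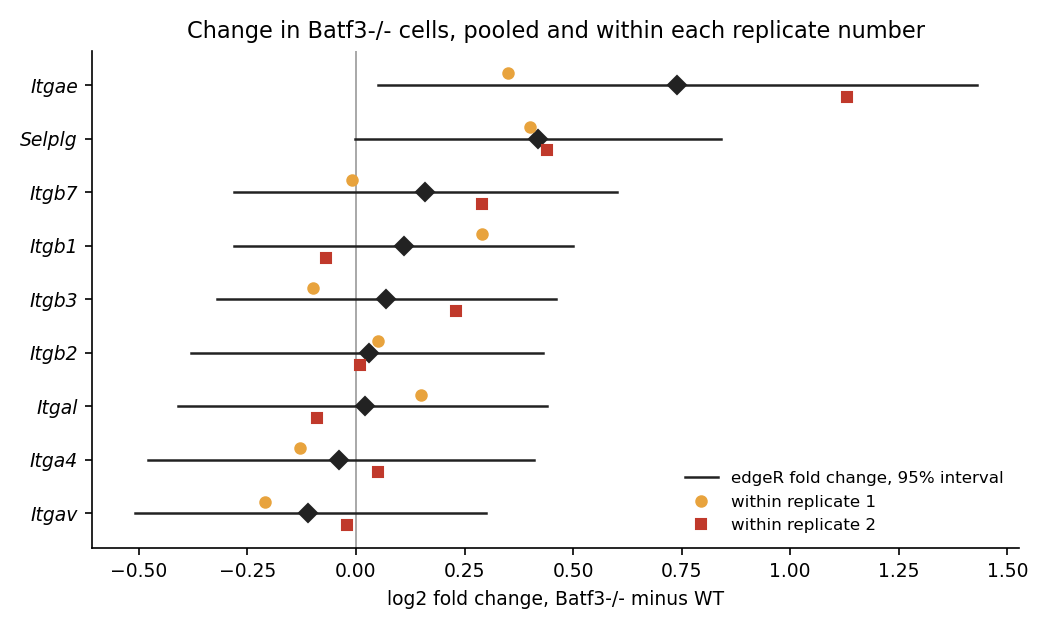
Log2 fold change of Batf3-/- over WT for the 9 tested genes, with diamonds for the edgeR estimate, lines for its 95% interval, and circles and squares for the ratio within replicates 1 and 2. Itgae (0.74) and Selplg (0.42) lie to the right, and every interval except that of Itgae includes 0.

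The β1 chain had more RNA in alpha partners than in β1 itself. Itgb1 (ENSMUSG00000025809.15, chromosome 8, 128685654 to 128733200, protein coding), the beta chain of most matrix-binding integrins, was at 121 and 138 CPM in WT and 147 and 132 CPM in Batf3-/- replicates 1 and 2 (log2 fold change 0.11, interval -0.28 to 0.50). Replicate 1 gave a log2 ratio of 0.29 and replicate 2 one of -0.07, and the groups overlapped. The alpha chains able to pair with β1 summed per kb to 1.43 to 1.98 times Itgb1. Itga7, a laminin-binding alpha chain best known in muscle, made up 40.3% to 50.2% of that sum, Itgav 20.7% to 26.1%, and Itga4 2.75% to 3.4%. The laminin chains Itga6 and Itga3 took 8.62% to 12.7% and 7.82% to 9.8%, and the fibronectin chain Itga5 took 6.22% to 8.53%.

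Itga7 was the highest of the alpha chains after Itgal, at 162 and 173 CPM in WT and 209 and 258 CPM in the respective Batf3-/- libraries. Both lay above WT, and its log2 fold change of 0.48 (SE 0.19, unadjusted p = 0.022, adjusted p = 0.902, edgeR) did not pass. Itga6 stood the other way, at 53.9 and 58.9 CPM in WT and 41.7 and 49.8 CPM in Batf3-/- (log2 fold change -0.30, adjusted p = 0.958, edgeR). Itga10, a collagen-binding chain with some fractional counts, was at 1.76 and 1.45 CPM in WT and 2.22 and 2.33 CPM in Batf3-/-. Itga3, Itga5 and Itgb5 had log2 fold changes of 0.28, 0.24 and -0.09, and the low chains Itga2b, Itgax and Itga9 of 0.51, 0.04 and -0.14. Of the 19 other integrin chain genes in the table, 9 had enough counts, 0 passed in either direction, and 6 were positive (median 0.24). That median rested on single libraries: it was 0.03 without WT replicate 1, -0.01 without Batf3-/- replicate 2 and 0.41 without WT replicate 2.

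αV was expressed with β1 and β3 but almost without β8. Itgav (ENSMUSG00000027087.11, chromosome 2, 83724397 to 83806916, protein coding), the alpha chain of the vitronectin receptors, was at 132 and 148 CPM in WT and 114 and 146 CPM in the respective Batf3-/- libraries. Batf3-/- replicate 1 was the lowest, and the groups overlapped (log2 fold change -0.11, interval -0.51 to 0.30). The pseudogene Dnmt3l-ps1 and the transcript Gm13684 overlap Itgav on the opposite strand. Itgav counts were whole in every library, and whether reads of these genes entered them was not tested. Itgb3 (ENSMUSG00000020689.4, chromosome 11, 104608000 to 104670476, protein coding), which pairs with αV or with the platelet chain αIIb, was at 96.1 and 94.1 CPM in WT and 89.9 and 110 CPM in Batf3-/-. The Batf3-/- values spanned the WT values, with a log2 fold change of 0.07 (interval -0.32 to 0.46). Per kb of exon, Itgb1 made up 61.1% to 68.5% of the beta chains able to pair with αV, Itgb3 28.9% to 35.3% and Itgb5 2.54% to 3.54%.

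For β3, Itgav made up 97.3% to 98.8% of the 2 possible alpha chains and Itga2b, which encodes αIIb, the rest. Of the other platelet markers, Gp9 had no count, Pf4 and Ppbp reached at most 0.0315 and 0.0647 CPM, and Gp1ba was at 0.386 and 0.729 CPM in WT and 0.535 and 1.16 CPM in Batf3-/- replicates 1 and 2, near Itga2b (0.875 to 1.64 CPM). The 5 platelet markers, Itga2b included, summed to 1.6 to 1.71 CPM in WT and 2.2 to 2.65 CPM in Batf3-/-. The log2 ratio of Itgav to Itgb3 per kb was -0.41 and -0.22 in WT and -0.52 and -0.46 in Batf3-/- replicates 1 and 2. With longest-transcript lengths the mean log2 ratio was 0.18, so which chain is higher per kb depends on the length used. The Batf3-/- ratios were the lower ones, by less than the spread between the WT libraries for Batf3-/- replicate 2 and WT replicate 1. With 2 libraries against 2, the smallest two-sided p of an exact permutation test is 0.333, and the ratios are given as a description, without a test.

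Itgb8 (ENSMUSG00000025321.14, chromosome 12, 119158022 to 119238802, protein coding) encodes the beta chain of αVβ8, the integrin that frees TGF-beta from its latent form and that regulatory T cells can carry. It had 1 and 7 counts in WT replicates 1 and 2 and 10 and 5 in Batf3-/- replicates 1 and 2, too few for the test. WT replicate 1 was under the limit of 3 counts, and the values are 0.0429 and 0.255 CPM against 0.315 and 0.323 CPM. Among the beta chains of αV it came to at most 0.0552% of the level per kb. An edgeR fit without the filter gave 0.99 on the log2 scale (SE 0.89, adjusted p = 0.878), which did not pass.

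**Figure D4:**
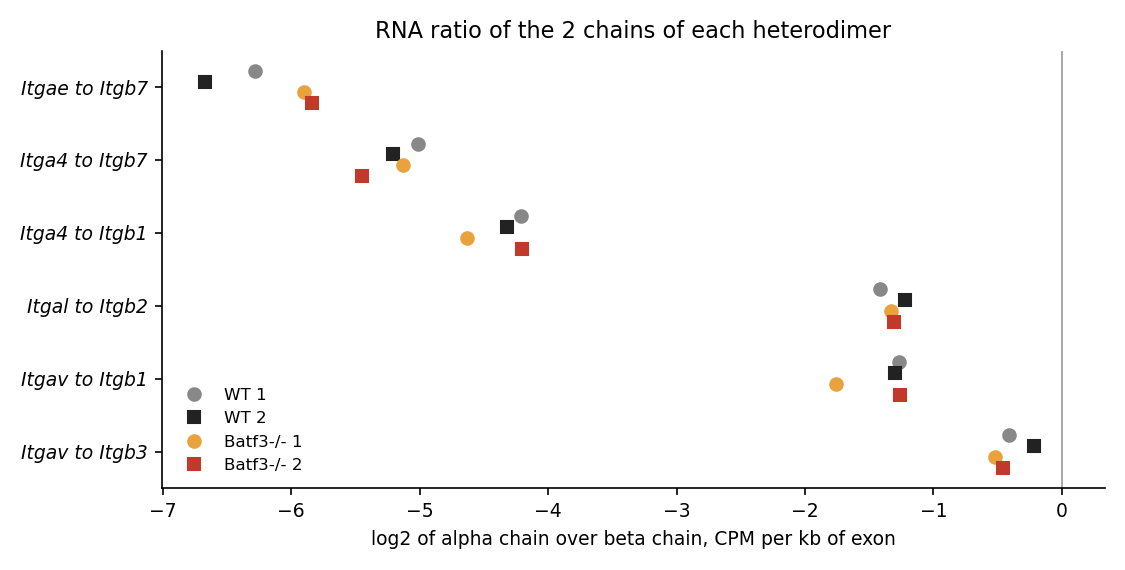
Log2 of the alpha chain over the beta chain (CPM per kb of exon) in each library for 6 heterodimers, with 0 marking equal levels. Itgav to Itgb3 lies nearest 0, at -0.52 to -0.22, and Itgae to Itgb7 farthest, at -6.67 and -6.28 in WT and -5.90 and -5.84 in Batf3-/-.

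Selplg (ENSMUSG00000048163.13, chromosome 5, 113818536 to 113832644, protein coding) was at 236 and 291 CPM in WT and 311 and 393 CPM in Batf3-/- replicates 1 and 2. Both Batf3-/- libraries were higher, although WT replicate 2 and Batf3-/- replicate 1 differed by less than the WT libraries did. The means were 263 ± 38.5 and 352 ± 57.9 CPM (SD, n = 2 each), with a log2 fold change of 0.42 (SE 0.20, interval -0.0012 to 0.84, unadjusted p = 0.0506, adjusted p = 0.958, edgeR), which did not pass. The log2 ratio was nearly equal in replicate 1 (0.40) and replicate 2 (0.44). Leaving out WT replicate 2 gave 0.58 on the log2 scale (adjusted p = 0.0561, edgeR), the lowest adjusted p of any member under the other settings tried. That fit sets both Batf3-/- libraries against WT replicate 1, the library with the lowest correlations, takes its spread from the Batf3-/- libraries, and called 301 genes higher and 252 lower, against 10 and 6 with all 4 libraries.

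Whether PSGL-1 binds selectins depends on enzymes that build its sugars and sulfate its tyrosines. Of 24 such genes, 19 had enough counts and 0 passed in either direction, with 14 positive and a median log2 fold change of 0.09 (0.04 without WT replicate 1 and 0.15 without WT replicate 2). B4galt5, a galactosyltransferase, was at 94.3 and 143 CPM in WT and 150 and 162 CPM in Batf3-/- replicates 1 and 2 (log2 fold change 0.40, adjusted p = 0.958, edgeR). It passed without WT replicate 2 (log2 fold change 0.73, adjusted p = 0.0172, edgeR), in the same fit against WT replicate 1 alone. Slc35c1, the GDP-fucose transporter of the Golgi, stood at a log2 fold change of 0.31, and C1galt1, which makes the core O-glycan, at -0.27. Fut7, the fucosyltransferase that completes the selectin-binding sugar, was at 11.4 and 12.5 CPM in WT and 15.9 and 11.5 CPM in Batf3-/-. Gcnt1, which branches the core O-glycan, was at 0.0429 to 0.109 CPM, with at most 3 counts in any library.

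Among selectins and other ligand cores, 6 of 10 genes had enough counts and 0 passed (median 0.02, and -0.21 without WT replicate 1). Selp, which encodes P-selectin, and Glg1, which encodes an E-selectin ligand, had log2 fold changes of 0.27 and -0.10.

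Of 34 genes in the table for proteins that bind integrin tails or switch integrins on, 30 had enough counts and 0 passed, with 16 positive and 14 negative (median 0.01). Talin and kindlin-3 open the receptor by binding beta tails, and their genotypes overlapped. Tln1 was at 294 and 427 CPM in WT and 334 and 417 CPM in Batf3-/- replicates 1 and 2, and Fermt3 at 285 and 357 against 347 and 365 CPM. The smallest p-values belonged to the adaptor Dok1 (log2 fold change 0.37), the Ras and Rap activator Rasgrp1 (-0.30) and the small GTPase Rap1b (-0.30), each with an adjusted p of 0.958 in edgeR. Of 13 integrin ligand genes, 8 had enough counts and 0 passed (median 0.01, and 0.64 without WT replicate 2). Icam2, Vcam1 and Fn1 had the smallest p-values, at log2 fold changes of 0.53, -0.79 and 0.43. Fn1, which encodes fibronectin, was at 1.37 CPM in WT replicate 1 and at 3.62 to 4.12 CPM in the other libraries, and it passed in the fit against WT replicate 1 alone (log2 fold change 1.45, adjusted p = 0.0397, edgeR), the library in which it was low.

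Genes that make, hold or release latent TGF-beta, the ligand of αVβ8, had 10 of 12 members tested and 0 past the threshold, with 9 positive (median 0.29, and 0.16 without WT replicate 1). Both Batf3-/- libraries lay above both WT libraries in 5 of the 10, against 18.2% of all tested genes. Furin, the protease that cleaves pro-TGF-beta, was at 458 and 713 CPM in WT and 775 and 840 CPM in Batf3-/- replicates 1 and 2 (log2 fold change 0.46, unadjusted p = 0.0471, adjusted p = 0.958, edgeR). It passed without WT replicate 2 (log2 fold change 0.82, adjusted p = 0.00199, edgeR), again against WT replicate 1 alone, where it was lowest. The membrane protease gene Mmp14 stood at 0.76 and Tgfb3 at 0.33. With a correction for transcript GC content the median of this list was 0.11 and that of the other integrin chains 0.04. Itga7, Mmp14 and Furin were the 3 genes with an unadjusted p under 0.05 among the 82 tested on all 6 lists of adhesion genes, of which 0 passed. Among all tested genes, 4.8% had such a p.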

How the data were processed

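RNA from the 4 libraries was selected for polyadenylated transcripts and made into libraries with a kit that keeps strand, per the labels' protocols. The authors deposited expected counts per gene (RSEM estimates that divide shared reads), made with STAR 2.5.0 and RSEM 1.2.25 per the submitters' processing notes, which also name GRCm38. No source used here gives the annotation or the strand setting. Groups came from the genotype label and replicate numbers from the titles. The 92 spike-in entries, all 0, were left out.

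Expected counts were rounded and compared with edgeR 4.0.16 (R 4.3.3), after filterByExpr (minimum count 10, minimum total 15), TMM, robust dispersions and a two-sided quasi-likelihood test of genotype, with Benjamini-Hochberg adjustment over 12135 genes at 0.05. The fit had 2 residual degrees of freedom per gene and borrowed spread across genes. DESeq2 1.42.0 and limma 3.58.1 were alternatives. The pipeline was tested on simulated data. Levels are TMM-normalized CPM of the deposited values; within-replicate ratios add 0.5 counts. Levels per kb use the union of exons in GENCODE M21 (GRCm38), which also gave the 1-based positions. Zeros were read against a floor of 3 counts, which covers counting error only. The 2 libraries of a genotype were not near-identical (chi-square per degree of freedom 66.3 in WT and 24 in Batf3-/-). Pairs across genotypes were not checked in this way.

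Named genes are the 10 members, the tested integrin chains, up to 3 genes of smallest p per other list, and the 3 genes closest in pattern to a member spanning at least 1 on the log2 scale among genes with a mean log2 CPM of 2 or more. Batf3 checked the labels. Xist, Foxp3, Gsg2, Cerkl, Fut7, Gcnt1, Tln1 and Fermt3 were added after values were seen. Members and lists were chosen with earlier results of these data known.

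Results for some list members are not reported here.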

Additional observations from a re-analysis of the deposited data

How the results depend on the processing

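Having 2 libraries per genotype limits the test, and Itgb8 had too few counts for it. Itgae, with 71 to 124 counts, had an SE of 0.33. For the 7 members nearest 0 the SE was 0.19 to 0.21, with Itga4 at 380 to 649.66 counts and Itgb2 at 8744 to 15971. Their 95% intervals have lower limits of -0.51 to -0.28 and upper limits of 0.30 to 0.60. Under 14 other settings no member passed, and the lowest adjusted p was 0.0561. Itgae (0.42 to 1.07), Selplg (0.24 to 0.58) and Itgb1 (0.0022 to 0.23) stayed positive in all 14. Of 126 member values, 19 changed sign, each in a member with an absolute log2 fold change below 0.2 in the main edgeR fit. The cause of these changes was not tested. With GC offsets the log2 fold changes were 0.13 for Itga4, -0.06 for Itgal, 0.03 for Itgav, -0.05 for Itgb2 and -0.08 for Itgb7. With the replicate block and GC offsets together they were 0.14, -0.05, 0.03, -0.05 and -0.11. Leaving out 1 library at a time gave -0.17 to 0.10 for Itga4, -0.19 to 0.24 for Itgal, -0.29 to 0.06 for Itgav, -0.09 to 0.14 for Itgb2, -0.08 to 0.21 for Itgb3 and -0.16 to 0.43 for Itgb7.

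Over all genes, the 10 higher and 6 lower calls became 11 to 301 and 7 to 252 with 1 library left out, the most when WT replicate 2 was dropped. Dropping WT replicate 1 gave 38 and 24 and dropping Batf3-/- replicate 2 gave 23 and 15. DESeq2 called 20 higher. Leaving out 1 library gave 0 to 1 calls each for integrin ligands, selectin ligand synthesis and latent TGF-beta handling. With the replicate number as a block 81 and 31 genes were called, and 56 and 33 with GC offsets added; Itgae and Selplg had adjusted p of 0.461 and 0.456 under the block. Same-numbered libraries deviated together at r = 0.108 over genes, and Xist split along the numbers. Same-numbered libraries share a code in their titles whose meaning the labels do not give, so whether the numbers pair the libraries was not settled.

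With longest-transcript lengths the mean log2 ratios were -3.92 for Itga4 to Itgb1 (-4.34 with exon unions), -4.73 for Itga4 to Itgb7 (-5.20), -1.03 for Itgal to Itgb2 (-1.32), -0.89 for Itgav to Itgb1 (-1.40) and 0.18 for Itgav to Itgb3 (-0.40), which changed sign by construction of the lengths.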
